A study of Mus musculus with 20 samples.

Results

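The genes described here build and maintain motile cilia. They comprise every gene on the array whose symbol begins with Cfap, Dnah, Dnai, Dnaic, Dnal, Dnali, Rsph, Tekt, Drc, Odad or Ift followed by a digit, and whose probe set carries that symbol alone. The rule found 63 of the 17097 genes measured: 25 Cfap genes (cilia and flagella associated proteins), 10 dynein heavy chains (Dnah), 2 dynein intermediate chains (Dnaic1 and Dnaic2), 3 dynein light chains (Dnal1, Dnal4 and Dnali1), 5 radial spoke genes (Rsph), 2 tektins (Tekt), 2 genes of the dynein regulatory complex (Drc) and 14 intraflagellar transport genes (Ift). No measured symbol began with Odad. Of the 63, 22 were covered by more than 1 probe set, and the probe set with the highest mean over all 20 arrays was read.

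RNA came from CD8+CD44+ T cells purified from mouse lungs that carried 4T1 cells, an established mouse mammary carcinoma line, and was measured on Affymetrix arrays. All 4 groups therefore carry the tumour and passed the same purification. Saline-CTRL (5 arrays) received saline by the intranasal route, SD-101 (6 arrays) received the TLR9 ligand SD-101, SD-101+anti-PD-1 (5 arrays) received this ligand with an antibody against the T cell receptor PD-1, and SD-101+anti-PD-1+a-CD4 (4 arrays) received both with an agent the labels name a-CD4 (called the a-CD4 group or arrays here). Strain, age, doses, times and pooling are not given in the sources used here. It is also not given whether replicates are different mice, so the p-values reflect only how far these samples scatter, which may be technical.

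An axoneme, the core of a motile cilium, is a ring of doublet microtubules around a central pair. Dynein arms bend it, radial spokes and the nexin-dynein regulatory complex coordinate the arms, tektins and many Cfap proteins line or link the doublets, and intraflagellar transport carries parts along the shaft. In the lung these structures belong to the multiciliated cells of the airway, where the transcription factors FOXJ1 and RFX switch on most axoneme genes. T cells build no motile cilia, although intraflagellar transport proteins such as IFT20 serve traffic to the immune synapse.

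Deposited log2 intensities spanned 1.78 to 13.44 over all probe sets, with array medians of 3.52 to 3.75, and a log2 difference of 1 is a doubling. The mean of 7 CD8 T cell markers ran from 9.92 to 10.77 on 18 arrays, and was lower on SD-101+anti-PD-1+a-CD4 replicate 2 (9.25) and Saline-CTRL replicate 1 (9.51). Transcripts of lung epithelium were present in every group, with Sftpc, the surfactant gene of alveolar type 2 cells, at 13.14 on average and Scgb1a1, the club cell secretoglobin, at 11.63. The labelled cell type thus had its markers, alongside markers of other lung cells.

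Many axoneme genes were higher on the SD-101+anti-PD-1 arrays than in the other 3 groups. Against saline, 28 of the 63 members rose and none fell, where a gene rose or fell if its p in limma, adjusted by Benjamini and Hochberg's method across the 17097 genes, was under 0.05. Over all genes, 3.47% rose and 2.15% fell in that comparison. The median log2 fold change was 0.59 over the members and 0.03 over all genes. For 26 members every SD-101+anti-PD-1 array lay above every saline array, as did 3.36% of all genes. In bulk RNA such as this, fewer cells of a type and less RNA per cell cannot be told apart. The 28 that rose were all among the 49 members outside the Ift family.

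The other comparisons with SD-101+anti-PD-1 gave differences of the same kind, and they share those 5 arrays, so they are no independent evidence of each other. Against SD-101 alone, 27 members rose and none fell (3.52% and 1.25% of all genes), with a median of 0.50 over the members and 0.01 over all genes. In the a-CD4 group against SD-101+anti-PD-1, 23 members fell and none rose (1.18% and 0.948% of all genes), with a median of -0.35 against 0.00. All 4 a-CD4 arrays lay below all 5 SD-101+anti-PD-1 arrays for 23 members, as for 4.53% of all genes.

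Between the other groups 0 or 1 members passed, and these counts were not tested against the shares of all genes. In SD-101 against saline, 0 of 63 passed in limma, while 0.333% of all genes passed. Of the members 1, Cfap20 (-0.27), had an unadjusted p under 0.05, as did 8.27% of all genes. In the a-CD4 group against SD-101, 0 passed in limma, while 0.983% of all genes passed. Here 4 members had an unadjusted p under 0.05, as did 16.6% of all genes. In the a-CD4 group against saline, 1 member rose, Ift52 (1.59% of the members), while 4.09% of all genes rose and 3.03% fell. With 63 members these shares are too close to set apart. The SD-101+anti-PD-1 group had the highest of the 4 group means for 43 of the 63 members (68.3%), and for 28.1% of all genes.

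**Figure D1:**
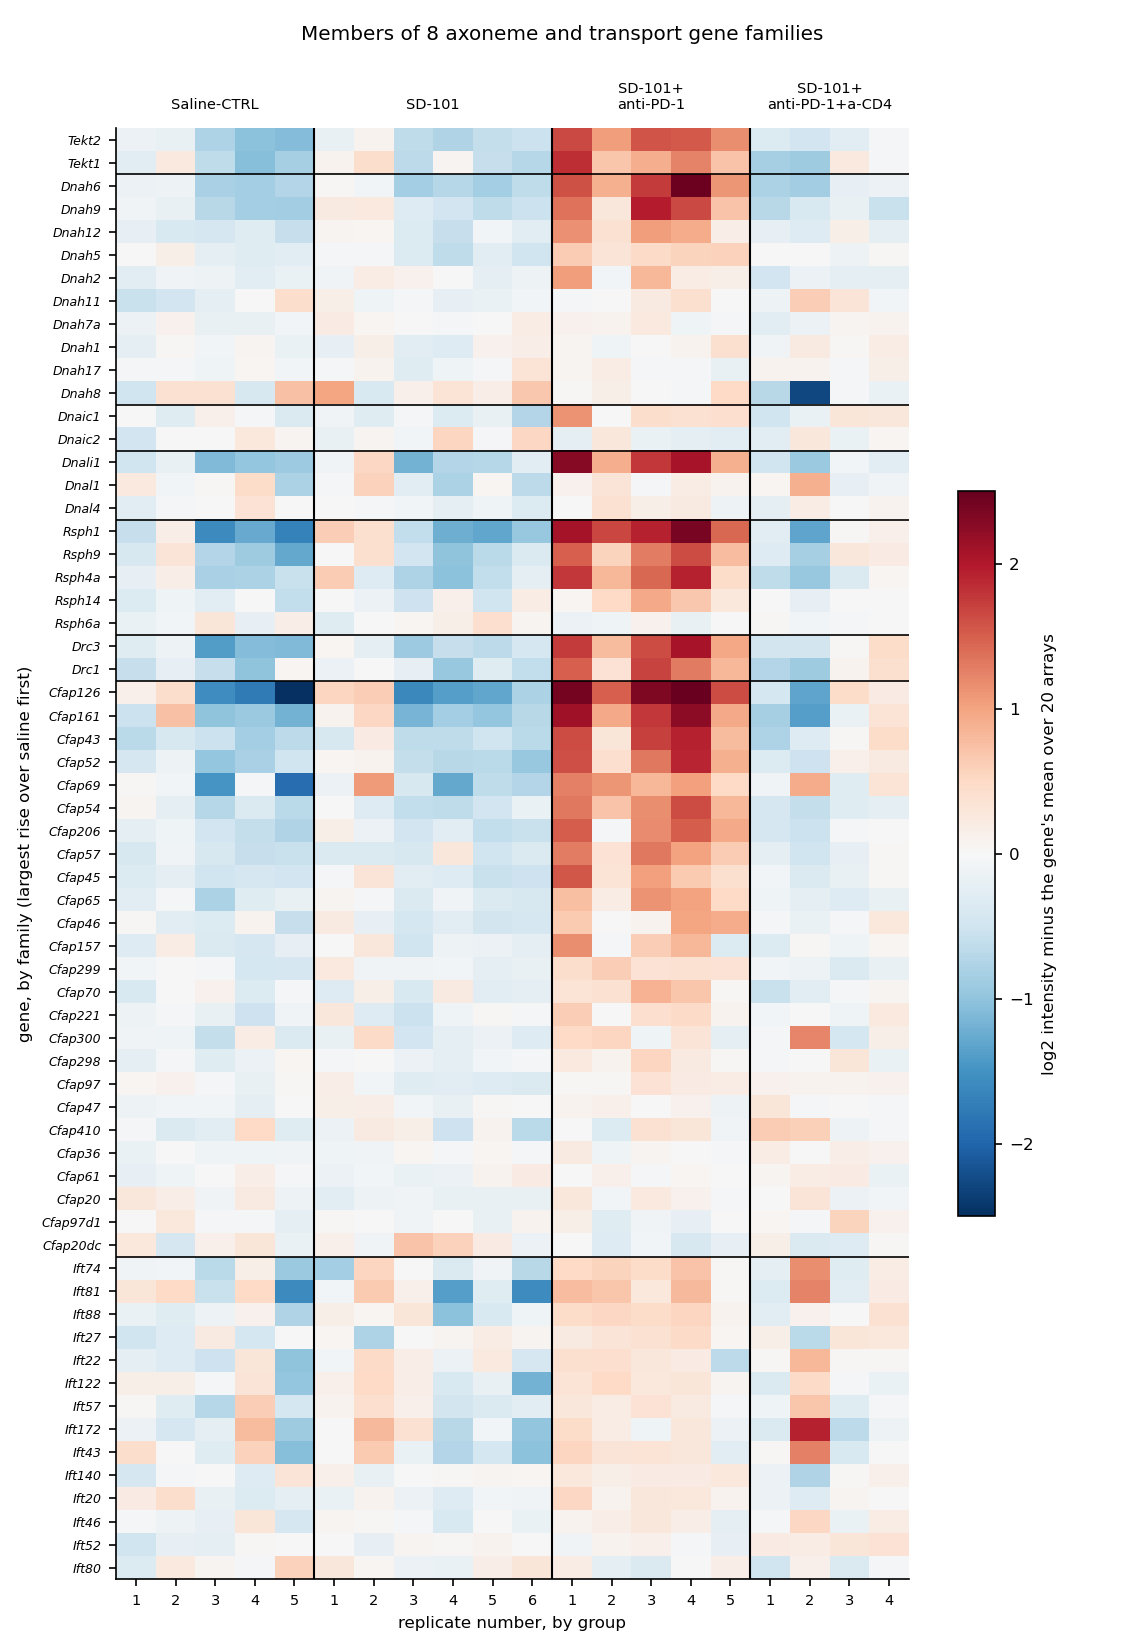
Log2 intensity of each of the 63 members on each of the 20 arrays, minus the gene's mean over the arrays, in blocks by family (horizontal lines) and by group (vertical lines). The 5 SD-101+anti-PD-1 arrays are red across most tektin, spoke, regulatory complex, upper heavy chain and upper Cfap rows. None of the 14 Ift genes passed the test against saline there.

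The 2 tektins, filament proteins built into the wall of the doublet, both rose over saline. Tekt2 read 3.34, 3.30, 2.71, 2.46 and 2.39 on the saline arrays, 2.73 to 3.57 with a median of 2.92 on the SD-101 arrays, 5.14, 4.52, 5.05, 5.01 and 4.64 on the SD-101+anti-PD-1 arrays, and 3.14, 3.0, 3.22 and 3.46 on the a-CD4 arrays. The SD-101+anti-PD-1 values lay above all 15 others, and the remaining 3 groups overlapped. The rise over saline was 2.03 (SE 0.20, 4.09-fold, adjusted p = 9.92e-05), and no gene of the 17097 had a larger moderated test statistic there. Over SD-101 it was 1.83 (SE 0.19, adjusted p = 1.37e-04). Between SD-101 and saline the difference was 0.21 (95% interval -0.20 to 0.61).

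Tekt2 was 1.67 lower in the a-CD4 group than in SD-101+anti-PD-1 (SE 0.21, adjusted p = 0.00244). Tekt1 averaged 2.76 ± 0.51 (SD, n = 5) in saline, 3.05 ± 0.48 (n = 6) in SD-101, 4.35 ± 0.49 (n = 5) in SD-101+anti-PD-1 and 2.88 ± 0.56 (n = 4) with a-CD4. It rose by 1.59 over saline (SE 0.30, adjusted p = 0.00329) and by 1.30 over SD-101 (adjusted p = 0.0151), and fell by 1.47 with a-CD4 (adjusted p = 0.0247). The rise over SD-101 lost its call without SD-101+anti-PD-1 replicate 1 (adjusted p = 0.0559).

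**Figure D2:**
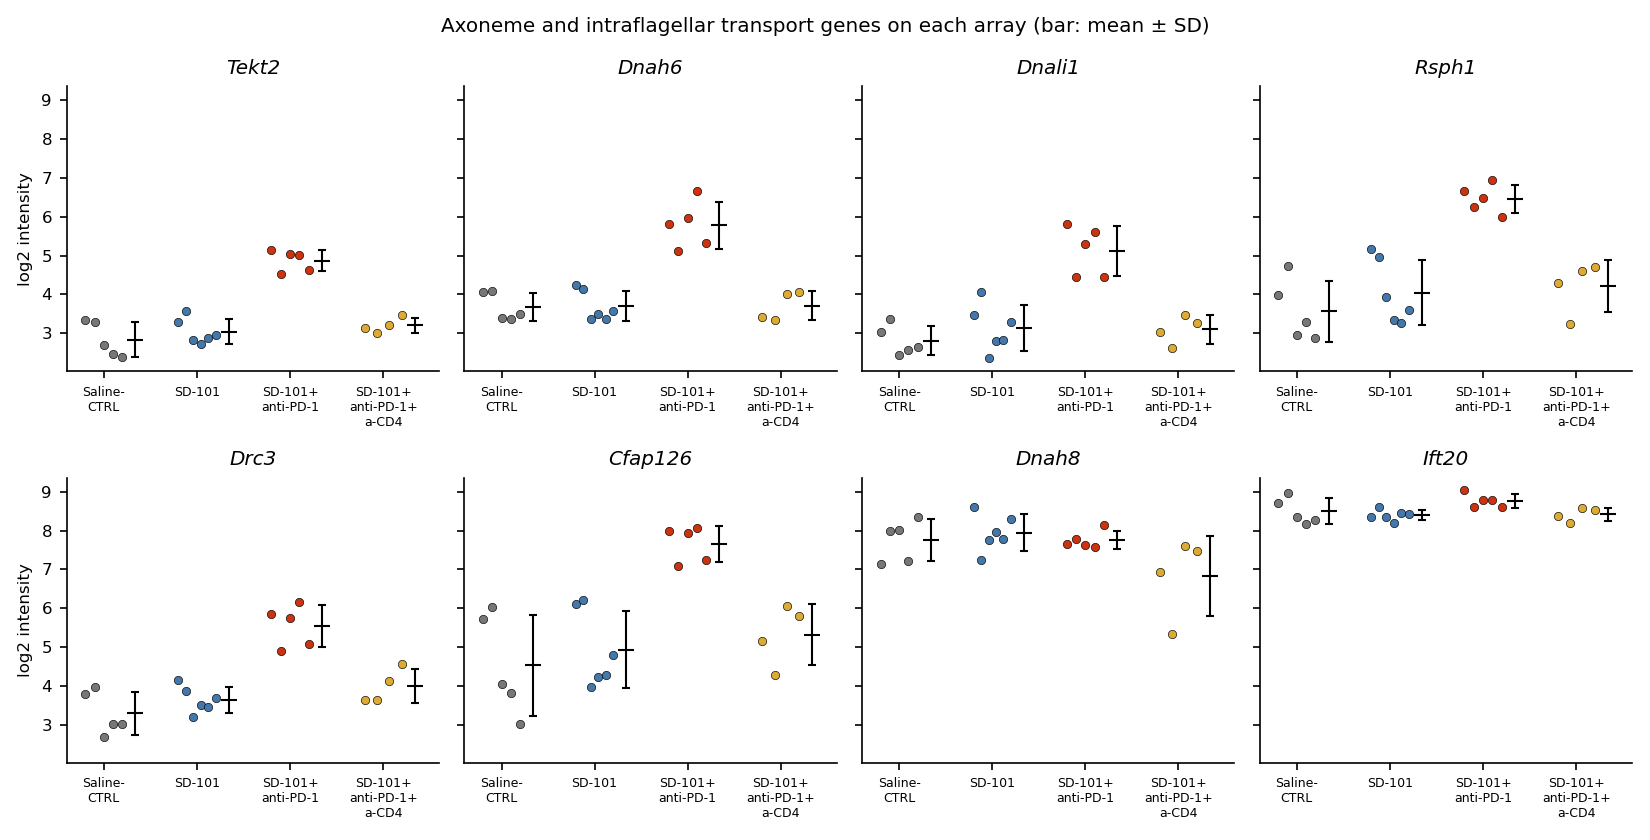
Log2 intensity of 8 members on every array, 1 point an array, with the group mean ± SD beside the points. Tekt2, Dnah6, Dnali1, Rsph1, Drc3 and Cfap126 are highest on all 5 SD-101+anti-PD-1 arrays, while the SD-101+anti-PD-1 values of Dnah8 and Ift20 overlap those of saline and SD-101, and 1 Dnah8 value is low (5.35).

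Dynein heavy chains, the motor subunits of the arms, divided into 5 of 10 that rose over saline and 5 that did not pass. Dnah6, an inner arm heavy chain, read 4.07, 4.09, 3.4, 3.36 and 3.49 in saline, 3.36 to 4.24 with a median of 3.55 in SD-101, 5.82, 5.11, 5.97, 6.66 and 5.33 in SD-101+anti-PD-1, and 3.43, 3.34, 4.02 and 4.07 with a-CD4. Every SD-101+anti-PD-1 value exceeded every other value. The rise over saline was 2.10 (SE 0.27, 4.28-fold, adjusted p = 1.98e-04), that over SD-101 was 2.08 (SE 0.26, adjusted p = 3.98e-04), and the fall with a-CD4 was -2.07 (SE 0.28, adjusted p = 0.00324).

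The outer arm heavy chain Dnah9, which airway cilia use in their distal part, averaged 3.19 ± 0.38 (SD, n = 5) in saline, 3.48 ± 0.39 (n = 6) in SD-101, 4.92 ± 0.68 (n = 5) in SD-101+anti-PD-1 and 3.28 ± 0.22 (n = 4) with a-CD4. It rose by 1.73 over saline (adjusted p = 7.76e-04) and by 1.44 over SD-101 (adjusted p = 0.00387), and fell by 1.64 with a-CD4 (adjusted p = 0.0111). Dnah5, another outer arm heavy chain of airway cilia, had smaller differences. Its saline values were 3.06, 3.21, 2.82, 2.76 and 2.79 and its SD-101+anti-PD-1 values 3.69, 3.38, 3.54, 3.62 and 3.64, with no overlap and a rise of 0.65 (SE 0.12, adjusted p = 0.00234). Over SD-101, Dnah5 rose by 0.82 (adjusted p = 9.01e-04), and with a-CD4 it fell by 0.55 (adjusted p = 0.0307).

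Dnah12 and Dnah2, both inner arm chains, rose over saline by 1.11 (adjusted p = 6.11e-04) and 0.61 (adjusted p = 0.0297). Dnah12 also rose over SD-101 by 0.92 (adjusted p = 0.00313), where the Dnah2 difference of 0.45 did not pass (adjusted p = 0.103). With a-CD4, Dnah12 fell by 0.89 (adjusted p = 0.0178) and Dnah2 by 0.70 (adjusted p = 0.0410). Dnah2 lost its call against saline without Saline-CTRL replicate 1, 3, 4 or 5 or SD-101+anti-PD-1 replicate 1 or 3 (adjusted p up to 0.0947).

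The 5 heavy chains that did not pass against saline were Dnah1, Dnah7a, Dnah8, Dnah11 and Dnah17, with differences of 0.01 to 0.28. Dnah8 and Dnah17 are known from sperm tails. Dnah11, with group means of 5.64 to 5.98, did not pass either, and whether the split went with use in sperm was not tested. The Dnah8 probe set read here was the brightest of the family, at 7.13, 8.0, 8.01, 7.22 and 8.36 in saline, 7.25 to 8.61 with a median of 7.88 in SD-101, 7.65, 7.77, 7.63, 7.58 and 8.13 in SD-101+anti-PD-1 and 6.94, 5.35, 7.60 and 7.46 with a-CD4. These groups overlapped, with a difference of 0.01 from saline in SD-101+anti-PD-1 (95% interval -0.73 to 0.75), and the lowest value was on the array with the lowest CD8 marker mean. The second Dnah8 probe set averaged 3.01. Dnah17 was near the low end of the scale on every array (group means 2.56 to 2.67). The saline means of some heavy chains that rose were near it too, such as Dnah12 (2.52), Dnah2 (2.57) and Dnah5 (2.93).

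The remaining dynein chains moved unevenly. Dnali1, the light intermediate chain of inner arms, read 3.04, 3.36, 2.45, 2.58 and 2.64 in saline, 2.36 to 4.06 with a median of 3.06 in SD-101, 5.82, 4.46, 5.31, 5.61 and 4.44 in SD-101+anti-PD-1, and 3.04, 2.62, 3.47 and 3.27 with a-CD4. Again the SD-101+anti-PD-1 values were above all others. Dnali1 rose by 2.31 over saline (SE 0.31, 4.97-fold, adjusted p = 2.74e-04) and by 1.99 over SD-101 (adjusted p = 0.00119), and fell by 2.03 with a-CD4 (adjusted p = 0.00577). Its second probe set, not used in the test, gave 2.52, 2.34 and -2.17 in the same comparisons.

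The light chains Dnal1 and Dnal4 did not pass in any of the 6 comparisons. Dnal4 read 5.98, 6.22, 6.25, 6.61 and 6.25 in saline, 5.91 to 6.26 with a median of 6.16 in SD-101, 6.24, 6.62, 6.39, 6.46 and 6.11 in SD-101+anti-PD-1 and 6.02, 6.44, 6.26 and 6.34 with a-CD4, with all groups overlapping. Of the outer arm intermediate chains, Dnaic1 read 3.41, 3.12, 3.56, 3.39 and 3.07 in saline, 2.69 to 3.39 with a median of 3.18 in SD-101, 4.54, 3.43, 3.86, 3.80 and 3.85 in SD-101+anti-PD-1 and 2.92, 3.25, 3.72 and 3.71 with a-CD4. The SD-101+anti-PD-1 arrays overlapped those of saline by 1 low value and exceeded every SD-101 array. Dnaic1 rose over SD-101 by 0.76 (SE 0.18, adjusted p = 0.0240), a call lost without SD-101 replicate 4 or SD-101+anti-PD-1 replicate 1, 3 or 4 (adjusted p up to 0.0789). Its difference from saline, 0.59 (SE 0.19), did not pass (adjusted p = 0.0824). Dnaic2 did not pass in any comparison, with differences of -0.27 to 0.16.

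Radial spoke genes rose in 4 of 5 cases over saline, and the member that did not was Rsph6a, known from sperm. Rsph1, a spoke head protein, read 3.98, 4.73, 2.97, 3.30 and 2.87 in saline, 3.26 to 5.18 with a median of 3.77 in SD-101, 6.65, 6.24, 6.48, 6.94 and 6.00 in SD-101+anti-PD-1 and 4.29, 3.24, 4.60 and 4.70 with a-CD4. The lowest SD-101+anti-PD-1 array was above the highest of the other 15. The rise over saline, 2.89 (SE 0.41, 7.44-fold, adjusted p = 3.87e-04), was the second largest among the members. Over SD-101 Rsph1 rose by 2.42 (SE 0.39, adjusted p = 0.00194), and with a-CD4 it fell by 2.26 (SE 0.44, adjusted p = 0.0145).

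Rsph9 and Rsph4a, also spoke head proteins, rose over saline by 1.75 (SE 0.31, adjusted p = 0.00191) and 1.72 (SE 0.31, adjusted p = 0.00233). Rsph9 read 4.90, 5.63, 4.57, 4.42 and 4.03 in saline, 4.29 to 5.70 with a median of 4.89 in SD-101, 6.80, 5.86, 6.59, 6.94 and 6.07 in SD-101+anti-PD-1 and 4.97, 4.48, 5.58 and 5.51 with a-CD4. The gap between the lowest SD-101+anti-PD-1 value and the highest other value was narrow, 5.86 against 5.70. Over SD-101 the rises were 1.51 for Rsph9 (adjusted p = 0.00727) and 1.67 for Rsph4a (adjusted p = 0.00339), and with a-CD4 the falls were -1.32 (adjusted p = 0.0447) and -1.76 (adjusted p = 0.0129). Rsph6a was near the low end on every array, with group means of 2.63 to 2.76.

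Both members named Drc, after the nexin-dynein regulatory complex, rose over saline. Genes of the complex under other symbols are not among the members. Drc3 read 3.80, 3.98, 2.70, 3.02 and 3.01 in saline, 3.20 to 4.16 with a median of 3.6 in SD-101, 5.86, 4.90, 5.74, 6.17 and 5.08 in SD-101+anti-PD-1 and 3.64, 3.65, 4.13 and 4.56 with a-CD4. No value of another group reached the lowest SD-101+anti-PD-1 value. The rise was 2.25 over saline (SE 0.28, 4.75-fold, adjusted p = 1.93e-04) and 1.91 over SD-101 (SE 0.27, adjusted p = 0.00107), and the fall with a-CD4 was -1.55 (SE 0.30, adjusted p = 0.0142).

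Drc1 read 3.82, 4.19, 3.83, 3.39 and 4.45 in saline, 3.45 to 4.39 with a median of 4.14 in SD-101, 5.89, 4.76, 6.09, 5.69 and 5.22 in SD-101+anti-PD-1 and 3.67, 3.5, 4.49 and 4.80 with a-CD4. One a-CD4 value, 4.80, was above the lowest SD-101+anti-PD-1 value, 4.76. Drc1 rose by 1.59 over saline (adjusted p = 0.00190) and by 1.5 over SD-101 (adjusted p = 0.00360), and fell by 1.41 with a-CD4 (adjusted p = 0.0220).

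The Cfap genes, a naming group of varied function, rose over saline in 14 of 25 cases. Cfap126 (Flattop), which positions basal bodies in multiciliated cells, had the largest rise of all members. It read 5.72, 6.03, 4.04, 3.83 and 3.02 in saline, 3.98 to 6.21 with a median of 4.55 in SD-101, 7.99, 7.08, 7.93, 8.06 and 7.23 in SD-101+anti-PD-1, and 5.16, 4.28, 6.05 and 5.80 with a-CD4. All SD-101+anti-PD-1 values stood clear of the rest, while the other groups each held arrays near 6 and arrays near or below 5. Cfap126 rose by 3.13 over saline (SE 0.56, 8.75-fold, adjusted p = 0.00191) and by 2.72 over SD-101 (SE 0.53, adjusted p = 0.00708), and fell by 2.33 with a-CD4 (SE 0.59, adjusted p = 0.0468).

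Cfap161 and Cfap52 encode proteins of the doublet lumen and rose over saline by 2.19 (SE 0.42, adjusted p = 0.00329) and 1.79 (SE 0.27, adjusted p = 4.65e-04). Cfap43, which anchors an inner dynein arm, rose by 1.90 (SE 0.27, adjusted p = 4.16e-04). Over SD-101 the rises were 2.12, 1.69 and 1.71 for Cfap161, Cfap52 and Cfap43, and with a-CD4 the falls were -2.12, -1.36 and -1.43 (adjusted p of 0.00119 to 0.00514 and of 0.0178 to 0.0206).

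Cfap54, part of the central apparatus, read 3.25, 2.96, 2.48, 2.82 and 2.51 in saline, 2.55 to 3.20 with a median of 2.78 in SD-101, 4.50, 3.89, 4.35, 4.82 and 4.01 in SD-101+anti-PD-1 and 2.77, 2.59, 2.89 and 2.94 with a-CD4. The 3 other groups overlapped fully below the SD-101+anti-PD-1 arrays. Cfap54 rose by 1.51 over saline (SE 0.18, adjusted p = 1.93e-04) and by 1.5 over SD-101 (SE 0.17, adjusted p = 3.49e-04). With a-CD4 it fell by 1.52 (SE 0.19, adjusted p = 0.00244), and no gene had a larger moderated test statistic in that comparison, followed by Tekt2.

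Cfap69 rose by 1.64 over saline (SE 0.41, adjusted p = 0.0236), but lost its call without Saline-CTRL replicate 3 or 5 or SD-101+anti-PD-1 replicate 1, 2 or 4 (adjusted p up to 0.0811). Its differences of 1.30 over SD-101 and -0.73 with a-CD4 did not pass. The 11 Cfap genes that did not pass against saline differed by -0.22 to 0.66. Cfap36, the brightest probe set of the family, read 7.82, 8.01, 7.88, 7.89 and 7.91 in saline, 7.88 to 8.04 with a median of 7.95 in SD-101, 8.22, 7.88, 8.05, 7.98 and 7.97 in SD-101+anti-PD-1 and 8.18, 8.01, 8.15 and 8.10 with a-CD4. Its group means lay within 0.21 of each other, and no comparison passed.

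**Figure D3:**
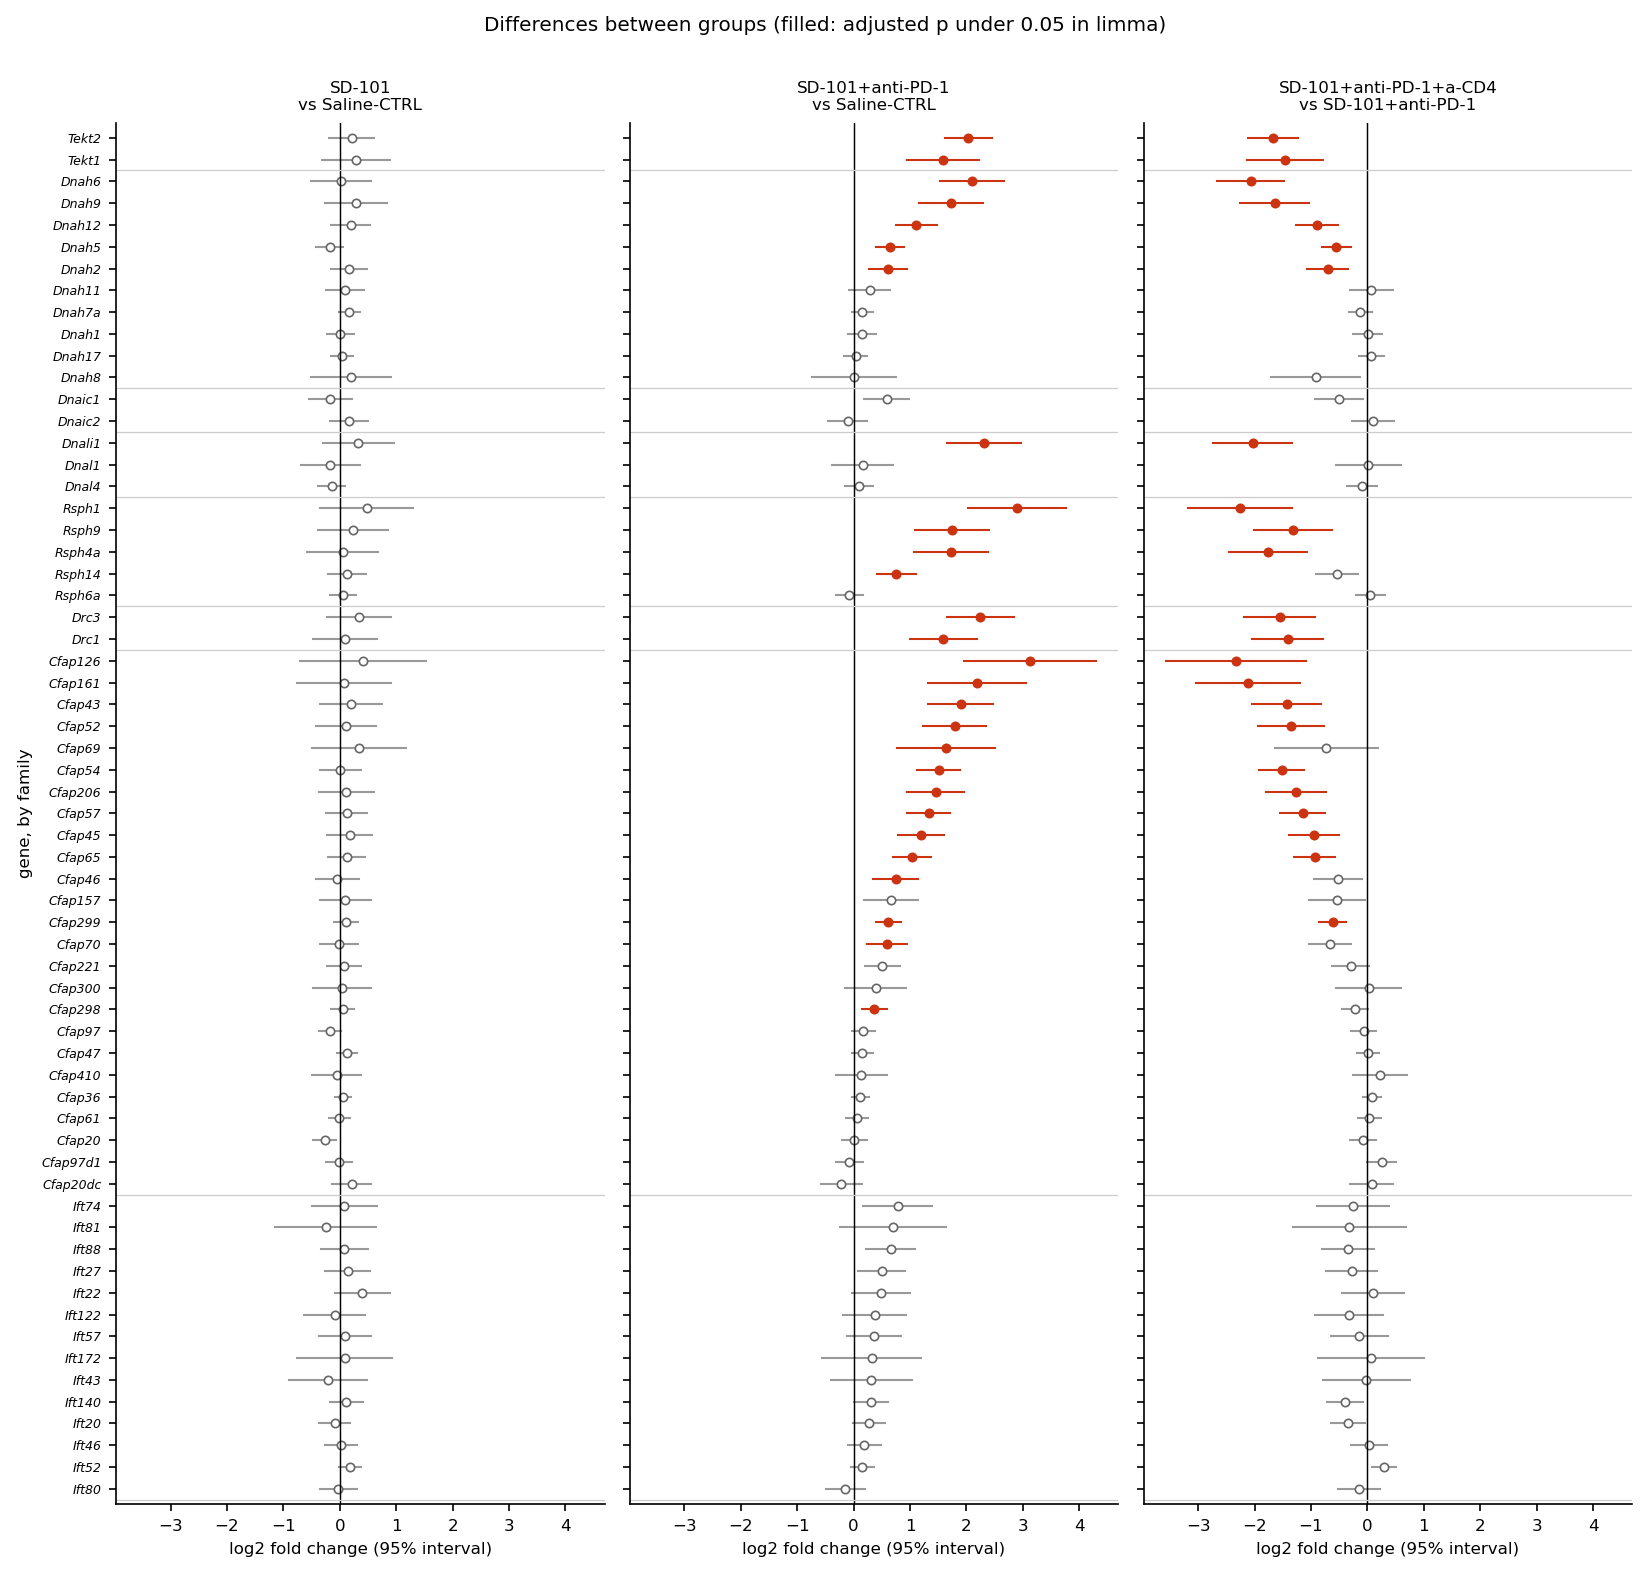
Log2 fold change (point) and 95% interval (line) of each of the 63 members in 3 comparisons, all on the same scale, with filled red points where the adjusted p was under 0.05. None is filled for SD-101 against saline, 28 are filled to the right for SD-101+anti-PD-1 against saline, and 23 are filled to the left where a-CD4 was added.

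Of the 14 intraflagellar transport genes with an Ift symbol, 0 passed in SD-101+anti-PD-1 against saline in limma. An unadjusted p under 0.05 was found for 4, and for 18.6% of all genes, and the median difference was 0.34. Transport genes under other symbols are given below, and of these Wdr19, Dync2h1 and Dync2li1 rose. The members outside the family had a median of 0.65 there, and the difference between the families was not tested. Differences of the 14 ran from -0.15 to 0.78, with 13 above 0. Ift74, which binds tubulin cargo together with Ift81, differed by 0.78 (adjusted p = 0.136), and Ift88, a core subunit of the anterograde complex, by 0.66 (adjusted p = 0.0737). The 95% interval for Ift88 was 0.22 to 1.09.

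Ift20, the brightest probe set of the family and the subunit also found at the Golgi, read 8.72, 8.96, 8.34, 8.17 and 8.28 in saline, 8.19 to 8.61 with a median of 8.39 in SD-101, 9.03, 8.60, 8.79, 8.78 and 8.60 in SD-101+anti-PD-1 and 8.37, 8.20, 8.58 and 8.52 with a-CD4. The saline arrays spanned nearly the whole range of the others. Ift20 differed from saline by 0.27 in SD-101+anti-PD-1 (95% interval -0.02 to 0.55, adjusted p = 0.306). Between a-CD4 and SD-101+anti-PD-1 the groups did not overlap, yet the difference of -0.34 did not pass (adjusted p = 0.217).

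Ift52 was the member that rose in the a-CD4 group against saline. It read 6.77, 7.06, 7.05, 7.29 and 7.26 in saline, 7.06 to 7.35 with a median of 7.28 in SD-101, 7.17, 7.35, 7.39, 7.22 and 7.06 in SD-101+anti-PD-1, and 7.47, 7.46, 7.56 and 7.63 with a-CD4. The a-CD4 values were the 4 highest of all 20. The rise was 0.44 (SE 0.10, 1.36-fold, adjusted p = 0.0127), and fitting these 2 groups alone ended the call. On SD-101+anti-PD-1+a-CD4 replicate 2, the array of lowest CD8 marker mean, Ift172 read 8.34 where the other 19 arrays read 5.43 to 7.23. Ift172 was not alone, as the mean of all 14 Ift genes was also highest on that array (7.15, against 6.14 to 7.02 on the other 19).

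**Figure D4:**
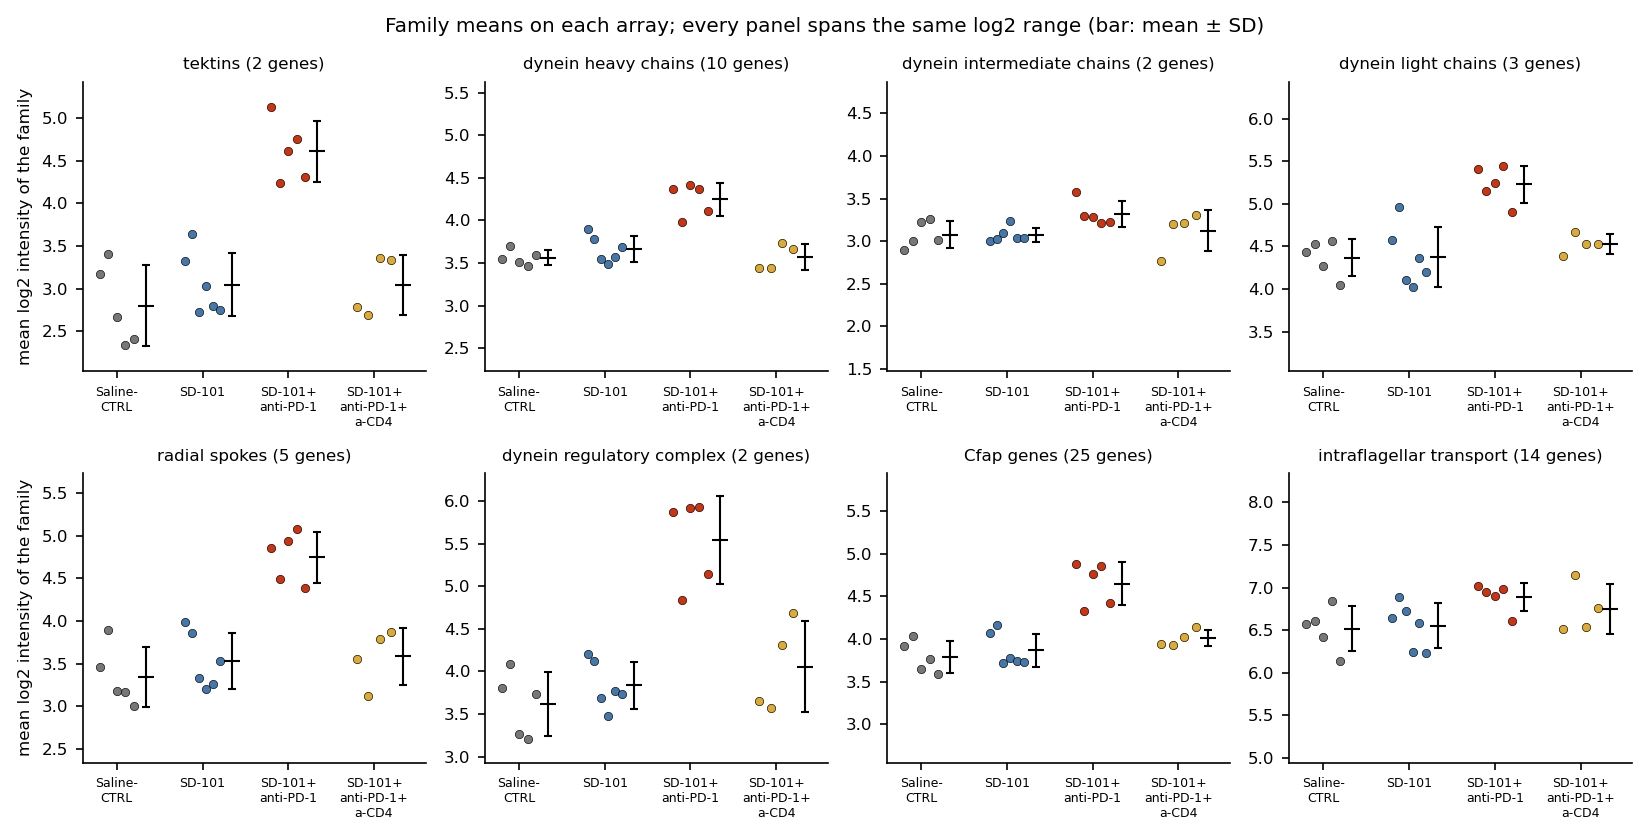
Mean log2 intensity of each family on every array, 1 point an array, with group mean ± SD; each panel spans the same range of log2 units. The SD-101+anti-PD-1 arrays lie above all others for tektins (4.24 to 5.13), heavy chains, spokes, the regulatory complex and Cfap genes, and overlap the rest for intermediate chains, light chains and intraflagellar transport.

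Promoter sequence is shown because 28 members rose in the same comparison and the letters can be set against all genes. RefSeq windows on GRCm38.p6, each 250 bases before to 50 after a start, were found for 53 of the 63 members (59 windows). The letters GTTGCC, the repeated core of the X-box that RFX factors bind, were sought on both strands, as was TGTTTAC, a core motif of forkhead factors such as FOXJ1; their matches cannot overlap each other. GTTGCC was in 28.8% of member windows and 12.5% of all 32851 windows, and TGTTTAC in 5.1% and 3.6%. GTTGCC was in 24.1% of the 29 windows of members that rose over saline, in 26.3% of the 19 of other members outside the Ift family, and in 45.5% of the 11 Ift windows. A match is no shown binding site. Below are the windows of the 3 members of smallest p against saline that hold GTTGCC, and of the 2 brightest Ift members that do, with each match (GTTGCC, or GGCAAC for the other strand) in capitals. Positions are chr4:126325639-126325938 (minus strand) for Tekt2, chr5:30281143-30281442 (plus) for Drc1, chr7:83794790-83795089 (minus) for Cfap161, chr17:25015836-25016135 (plus) for Ift140 and chr16:49699044-49699343 (plus) for Ift57.
Tekt2: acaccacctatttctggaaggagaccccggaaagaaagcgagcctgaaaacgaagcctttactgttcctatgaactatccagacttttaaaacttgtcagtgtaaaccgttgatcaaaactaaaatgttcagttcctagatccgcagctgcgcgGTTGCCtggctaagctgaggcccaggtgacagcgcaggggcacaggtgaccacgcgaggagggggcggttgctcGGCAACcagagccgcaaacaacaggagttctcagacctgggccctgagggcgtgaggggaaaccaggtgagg
Drc1: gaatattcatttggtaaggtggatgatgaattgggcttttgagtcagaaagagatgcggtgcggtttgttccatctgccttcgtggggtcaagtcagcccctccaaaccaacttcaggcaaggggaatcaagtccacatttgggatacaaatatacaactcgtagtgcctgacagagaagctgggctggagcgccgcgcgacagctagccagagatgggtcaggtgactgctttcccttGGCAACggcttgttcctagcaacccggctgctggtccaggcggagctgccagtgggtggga
Cfap161: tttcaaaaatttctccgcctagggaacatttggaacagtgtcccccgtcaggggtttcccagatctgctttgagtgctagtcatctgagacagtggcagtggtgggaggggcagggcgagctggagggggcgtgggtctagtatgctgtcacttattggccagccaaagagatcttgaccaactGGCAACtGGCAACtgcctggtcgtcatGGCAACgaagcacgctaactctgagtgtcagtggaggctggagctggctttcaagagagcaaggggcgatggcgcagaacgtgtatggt
Ift140: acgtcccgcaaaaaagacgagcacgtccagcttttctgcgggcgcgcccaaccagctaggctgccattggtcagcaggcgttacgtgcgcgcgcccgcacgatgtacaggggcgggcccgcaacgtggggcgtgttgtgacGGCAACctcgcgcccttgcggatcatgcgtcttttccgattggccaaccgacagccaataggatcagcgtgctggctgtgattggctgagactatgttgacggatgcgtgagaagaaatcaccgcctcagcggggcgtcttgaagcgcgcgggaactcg
Ift57: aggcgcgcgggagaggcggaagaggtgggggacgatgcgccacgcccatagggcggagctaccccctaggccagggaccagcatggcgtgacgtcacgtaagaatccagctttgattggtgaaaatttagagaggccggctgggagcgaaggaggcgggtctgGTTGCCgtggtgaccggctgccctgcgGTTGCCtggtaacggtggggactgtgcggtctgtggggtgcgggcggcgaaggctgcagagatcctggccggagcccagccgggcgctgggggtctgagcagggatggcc
Tekt2 and Ift57 held 2 matches each, Cfap161 held 3, and Drc1 and Ift140 held 1. The first 3 genes rose over saline, by 2.03 (Tekt2), 1.59 (Drc1) and 2.19 (Cfap161), while Ift140 differed by 0.31 (adjusted p = 0.249) and Ift57 by 0.37, and neither passed.

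Cilium genes outside these symbols were read from 4 lists. Of 20 measured axoneme genes with other names, 13 rose and 0 fell in SD-101+anti-PD-1 against saline (median 0.75), among them Nme5, a spoke-associated kinase (2.79, SE 0.46, adjusted p = 0.00105), Spag6l of the central apparatus (1.93, adjusted p = 0.00172), and Ccdc39 and Ccdc40, the ruler proteins that space the arms (1.34 and 1.58). With a-CD4 against SD-101+anti-PD-1, 11 fell and 0 rose. Of 11 dynein arm assembly factors, 2 rose over saline, Zmynd10 (1.72, adjusted p = 7.73e-04) and Ccdc103 (0.58, adjusted p = 0.0145).

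Of 11 measured regulators of multiciliation, only Foxj1, the master factor of motile cilia, rose over saline. Foxj1 averaged 4.18 ± 0.27 (SD, n = 5) in saline, 4.54 ± 0.51 (n = 6) in SD-101, 6.55 ± 0.48 (n = 5) in SD-101+anti-PD-1 and 4.78 ± 0.37 (n = 4) with a-CD4. It rose by 2.36 over saline (SE 0.26, adjusted p = 1.78e-04) and by 2.01 over SD-101 (adjusted p = 3.98e-04), and fell by 1.76 with a-CD4 (adjusted p = 0.00493). Rfx2 and Rfx3 did not pass, with means of 4.23 and 3.93 in saline and 4.11 and 3.95 in SD-101+anti-PD-1. Among 21 genes of the BBSome and of transport in primary cilia, 3 rose over saline: Wdr19 (1.0), a subunit of the retrograde transport complex, and Dync2h1 (0.82) and Dync2li1 (1.39), chains of its motor.

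Markers of other lung cells differed between the groups as well, and their part in the members' differences was not tested. Of 9 measured markers of ciliated airway cells, 7 rose over saline in SD-101+anti-PD-1 and 5 fell with a-CD4. Their mean per array was 4.26 to 5.74 in saline, 4.25 to 5.96 in SD-101, 6.41 to 7.45 in SD-101+anti-PD-1 and 4.28 to 5.81 with a-CD4. The mean of the 49 members outside the Ift family followed the same split, at 3.49 to 3.92, 3.6 to 4.03, 4.30 to 4.80 and 3.70 to 3.99. The marker list itself includes genes of motile cilia such as Foxj1, so the lists are not independent of each other.

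Most secretory and alveolar epithelial markers differed in the same directions, though few passed the test. Over all genes, 18.6% had an unadjusted p under 0.05 in SD-101+anti-PD-1 against saline and 18.3% against SD-101. The share was 17.9% in the a-CD4 group against SD-101+anti-PD-1. Of 8 club and goblet cell markers, 0 rose over saline in limma (6 had an unadjusted p under 0.05), 7 were above 0 and the median difference was 1.34. With a-CD4 against SD-101+anti-PD-1 all 8 were below 0, with a median of -1.58, and 0 fell in limma (5 unadjusted). Scgb3a2, a club cell secretoglobin, averaged 8.59 ± 1.55 (SD, n = 5) in saline and 10.94 ± 0.47 (n = 5) in SD-101+anti-PD-1, whereas Bpifa1, a secreted airway protein, averaged 8.23 ± 1.3 and 6.79 ± 1.07. The mean of the 8 markers was 5.48 to 7.20 in saline, 5.09 to 7.86 in SD-101, 6.95 to 7.95 in SD-101+anti-PD-1 and 4.78 to 6.60 with a-CD4. On SD-101 replicates 1 and 2 it was 7.86 and 7.60, within the SD-101+anti-PD-1 range, while the 49 members averaged 3.99 and 4.03 there, below the lowest SD-101+anti-PD-1 array. Of 5 alveolar markers, 0 rose over saline in limma (1 unadjusted), with a median of 0.68. Over SD-101, 0 rose (4 unadjusted), with a median of 0.85. Their mean on Saline-CTRL replicates 1 and 2 (11.76 and 11.75) exceeded that on the SD-101+anti-PD-1 arrays (11.22 to 11.68). The 49 members averaged 3.75 and 3.92 there, highest within the saline group (3.49 to 3.59 on its other arrays).

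Other lists moved in several directions in SD-101+anti-PD-1 against saline. All 5 endothelial markers fell (mean 7.99 to 10.13 in saline, 5.00 to 6.30 in SD-101+anti-PD-1), and 3 of 4 fibroblast markers rose (4.86 to 6.78 and 6.69 to 7.49). Of 7 CD8 T cell markers 0 passed in limma, with 0 at an unadjusted p under 0.05, and their means overlapped (9.51 to 10.53 and 10.14 to 10.49). Of 4 macrophage markers 0 passed in limma (0 at an unadjusted p under 0.05). Basal airway cell markers (2.74 to 3.68 over all arrays) and markers of spermatids (2.52 to 3.18), cells that also build an axoneme, lay near the low end of the scale, and 0 of 4 and 0 of 6 passed in limma (0 and 0 at an unadjusted p under 0.05).

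**Figure D5:**
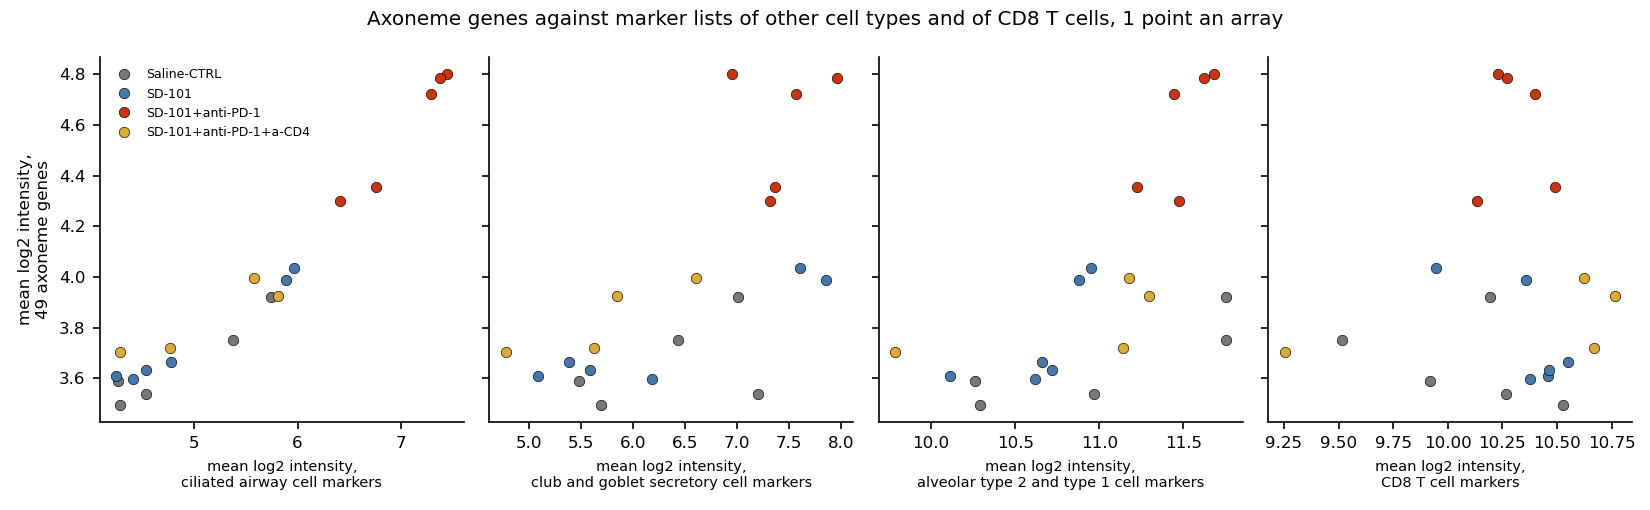
Mean log2 intensity of the 49 members outside the Ift family (vertical axis) against the mean of 4 marker lists (horizontal axes), 1 point an array, coloured by group. The SD-101+anti-PD-1 arrays are highest for both the members and the ciliated cell markers, a list that includes motile cilium genes such as Foxj1. Secretory marker means of some saline and SD-101 arrays lie within the SD-101+anti-PD-1 range. Alveolar marker means of Saline-CTRL replicates 1 and 2 lie above all SD-101+anti-PD-1 arrays. Those of the SD-101 arrays (up to 10.95) lie below the lowest SD-101+anti-PD-1 mean (11.22). CD8 markers overlap between groups. The part of these markers in the members' differences was not tested.

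Within the groups, members varied by array. Among the 28 members that rose over saline, the lowest SD-101+anti-PD-1 value was on replicate 2 for 18 and on replicate 5 for 9, and the ciliated cell marker mean was lowest there too (6.41 and 6.76). In saline, replicate 2 held the highest value for 18, and in SD-101, replicates 1 and 2 held the highest for 10 and 15. With a-CD4, the lowest value was on replicate 2 for 18. The ciliated marker mean was the highest of its group on Saline-CTRL replicate 2 (5.74), the 2 highest of the group on SD-101 replicates 1 and 2 (5.89 and 5.96), and the lowest of the group on SD-101+anti-PD-1+a-CD4 replicate 2 (4.28).

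The calls depended on single arrays to different extents. Leaving out 1 array at a time, 23 to 30 members were called in SD-101+anti-PD-1 against saline and 22 to 28 against SD-101, and 23 of 28 and 21 of 27 calls held in every such fit. With a-CD4 against SD-101+anti-PD-1, 8 of 23 held in every fit: Tekt2, Dnah6, Dnah9, Dnali1, Cfap54, and, named after their values were seen, Cfap57, Cfap65 and Cfap299. The count was 8 without SD-101+anti-PD-1+a-CD4 replicate 2, 10 without replicate 1 of that group, 10 and 11 without SD-101+anti-PD-1 replicates 4 and 1, and 7 without both arrays of lowest CD8 marker mean.

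Among the falls with a-CD4, Tekt1, Dnah12, Drc1, Cfap161, Cfap43 and Cfap52 each lost their call without any 1 of SD-101+anti-PD-1 replicates 1 and 4 and a-CD4 replicates 1 and 2 (adjusted p up to 0.0979). Drc3 lost it without a-CD4 replicate 1 or 2 (up to 0.0602), Rsph1 without SD-101+anti-PD-1 replicate 4 or a-CD4 replicate 2 (up to 0.0645) and Rsph4a without a-CD4 replicate 2 (0.0573). Cfap126 lost it in 8 of 9 such fits, all but that without a-CD4 replicate 3 (up to 0.181). Rsph9 lost it in all but those without SD-101+anti-PD-1 replicate 2 and a-CD4 replicate 3 (up to 0.172). Dnah2 and Dnah5 lost it in 7 of 9, Dnah2 in all but those without SD-101+anti-PD-1 replicate 2 or 5 (up to 0.121) and Dnah5 in all but those without replicate 2 or 3 of that group (up to 0.0907). Centring each array on its median also ended the calls of Cfap126 (adjusted p = 0.0506) and Dnah2 (adjusted p = 0.0613).

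Where a gene had other probe sets, these did not all show the difference. Of the 28 members that rose over saline, 9 had 12 further probe sets, of which 10 differed in the same direction. The differences of all 12 ran from -0.05 to 2.52. The second probe sets of Cfap54, Dnah9, Drc3 and Dnah2 differed from saline by 0.16, 0.09, 0.21 and 0.01. Their mean levels of 2.55, 2.96, 2.72 and 2.51 were near the low end of the scale.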

How the data were processed

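One Affymetrix array was read for each of 20 samples. Expression values were deposited on a log2 scale for 45141 probe sets, and the submitters' processing notes name affy, RMA, limma and mm8 without roles. Scanner intensities were not used here. Of the probe sets, 104 were controls, 28898 carried 1 gene symbol, 551 several and 15692 none. Each of the 17097 genes was read from its probe set of highest mean. Levels of different genes were compared to name the brightest members and those near the low end of the scale, and were not tested against each other.

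Group means were fitted to all 20 arrays with limma 3.58.1 in R 4.3.3 (lmFit and eBayes), after testing on simulated data, and 6 comparisons were read with Benjamini-Hochberg adjustment over all genes. Arrays give no read depth, so the number of arrays limits the precision. The mean of a list is the plain mean of its log2 values on an array.

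Named in each family and comparison are up to 3 called members of largest change (5 for Cfap and Dnah), and the member of highest mean. Other named genes were chosen after their values were seen. The members and lists were chosen with earlier results of these data known. Alternatives were median centring, quantile normalization, the probe set of largest interquartile range, genes with a mean of at least 5, array weights, the replicate number as a block, only the 2 groups compared, each array left out, and, added after seeing the data, both arrays of lowest CD8 marker mean left out. Promoter windows came from RefSeq. No protein sequences were used here.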

Additional observations from a re-analysis of the deposited data

Results flagged for a closer look

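In 5 of the 140 sets of values tested, 1 array stood apart from its group, its gap to the nearest value being large against the group's range by Dixon's 95% limit. Chance alone marks about 1 in 20 such sets. Within SD-101, Cfap299 stood apart on replicate 1 (2.87), Cfap43 on replicate 2 (3.75), Cfap57 on replicate 4 (3.19) and Ift52 on replicate 2 (7.06). Within SD-101+anti-PD-1+a-CD4, Rsph14 stood apart on replicate 2 (2.99), the array of lowest CD8 marker mean. No cause was tested.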

How the results depend on the processing

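No named value changed sign under any alternative run. Leaving out 1 array at a time, the called members numbered 23 to 30 in SD-101+anti-PD-1 against saline, 22 to 28 against SD-101, 8 to 22 in the a-CD4 group against SD-101+anti-PD-1, 1 in each fit of the a-CD4 group against saline, and 0 in SD-101 against saline and in the a-CD4 group against SD-101. With genes of a mean of at least 5, which removes most members, 3, 3 and 0 were called in the first 3 of these comparisons. Median centring gave 26, 24 and 21 there. Array weights gave 2 calls for the a-CD4 group against saline and 1 against SD-101. Fitting only the 2 groups compared, a smaller fit, gave 15 for the a-CD4 group against SD-101+anti-PD-1 and 0 against saline. Without both arrays of lowest CD8 marker mean, chosen after seeing the data, 7 were called in the former. Of the named values, 278 of 290 against saline, 303 of 308 against SD-101 and 201 of 272 with a-CD4 kept their side of the threshold, and the others fell short of it.

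Same-numbered arrays did not deviate together (27 pairs, correlations of -0.39 to 0.51, 9 over 0.1), so the numbers were not taken as pairs. With the replicate number as a block, 27 members were called against saline, 27 against SD-101, 20 with a-CD4 against SD-101+anti-PD-1 (the falls of Drc1, Rsph9 and Dnah2 no longer passed, with limma adjusted p of 0.0561, 0.060 and 0.0628), 1 with a-CD4 against saline, and 0 in both other comparisons.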

Other observations

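In the a-CD4 group against saline, 4.09% of all genes rose. Cilium lists beside the Cfap, dynein, spoke, tektin and transport families were read against that share. In limma, 1 of 11 regulators of multiciliation and 1 of 11 dynein arm assembly factors rose. Each is 9.09% of its list, and such short lists cannot be set apart from all genes. Of 20 axoneme genes of other names, 0 rose (0 at an unadjusted p under 0.05). Of 21 genes of the BBSome and primary cilium transport, 0 rose. At an unadjusted p under 0.05, 6 of these differed, 4 higher and 2 lower. Over all genes, 20.8% had an unadjusted p under 0.05. The regulator was Plk4, the kinase that starts centriole duplication in dividing and in multiciliated cells, which was 1.36 higher than in saline (adjusted p = 0.0153) and 1.27 higher than in SD-101+anti-PD-1 (adjusted p = 0.0488). The assembly factor was Dnaaf2, which was 0.71 higher than in saline (adjusted p = 0.011).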
